A study of Mus musculus with 8 samples.

Results

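Muscle wasting runs through a small set of regulators. FoxO transcription factors, held out of the nucleus by insulin and IGF signalling through the kinase Akt, switch on ubiquitin ligases that mark muscle proteins for the proteasome, and the nerve supply acts on the same ligases through the deacetylase Hdac4 and the stress gene Gadd45a. The 10 genes described here are 4 muscle ubiquitin ligases (Fbxo32, Trim63, Fbxo30 and Fbxo21), 3 FoxO factors (Foxo1, Foxo3 and Foxo4) and 3 regulators known from denervated muscle (Hdac4, Gadd45a and Runx1). They were chosen by name and looked up by mouse Ensembl identifier, and all 10 were found among the 23008 mouse genes of the deposited table. In mice, Fbxo32 and Trim63 rise in many forms of wasting and serve as its common markers.

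RNA was sequenced from gastrocnemius, a calf muscle rich in fast fibres, of wild-type C57BL/6J mice. Every mouse received the gene-activating epigenome editor called GNDM, packaged in AAV9 and given through the tail vein; the groups differ in the guide RNA, which was m31, aimed at Lama1, in 4 libraries and a non-targeting control guide in 4. Muscle was collected 11 weeks after injection of mice aged 7 weeks by one label and 7 to 12 weeks by another. No uninjected muscle was analysed here, the dose is not given in the sources used here, and the mice carry intact Lama2, so the comparison is between guides in healthy muscle and not a model of the dystrophy named in the series title. No label ties each library to its own animal, and the spread behind the p-values may therefore be technical in part. The promoter that drives GNDM is not named in the labels.

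Values are normalised reads, that is, reads per gene divided by a size factor of the library, from 25157486 to 39210248 reads in genes per library. All 8 myofibre markers were present, with a summed level of 3909446 to 5220421 normalised reads, as skeletal muscle holds. Their sum does not tell one muscle from another. Lama1 stood at 86.5 to 295 normalised reads in the m31 libraries and at 0 to 4.18 in the control libraries, as the guide labels say. Lama1 was also the only gene of 15960 tested that passed limma's adjusted p of 0.05 (0.00627% of genes), so the 10 genes are set below against a background in which almost nothing passed. The libraries m31 replicate 4 and control replicate 3 stood apart from the others in the summed leukocyte and macrophage markers, at 8373 and 5882 normalised reads against 2514 to 4129 in the other 6. In bulk muscle, fewer cells of a type and less RNA per cell cannot be told apart.

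A start-site window (250 bases before to 50 after the start, RefSeq, build GRCm38.p6) was at hand for 8 of the 10 genes, Fbxo32 and Foxo4 being those without. The windows were searched on both strands for the FoxO core TGTTTAC, the Runx core TGTGGT and the E-box CAGCTG bound by muscle helix-loop-helix factors. Of all 32851 windows of this length, 3.65% hold the FoxO letters, 16.8% the Runx letters and 16.3% the E-box. The Trim63 window held a FoxO match that begins 194 bases before the start and an E-box match that begins 72 bases before it. It is shown because it was the only window of the 9 with a FoxO match. The upstream window of Runx1, which has a second start site further downstream, held a pair of Runx matches on the reverse strand, beginning 29 and 37 bases into the transcribed part, and is shown because the letters are those its own protein binds. Capitals mark the matches, which describe letters and not binding. Trim63 is at chr4:134314870-134315169 on the plus strand and Runx1 at chr16:92826025-92826324 on the minus strand.
Trim63: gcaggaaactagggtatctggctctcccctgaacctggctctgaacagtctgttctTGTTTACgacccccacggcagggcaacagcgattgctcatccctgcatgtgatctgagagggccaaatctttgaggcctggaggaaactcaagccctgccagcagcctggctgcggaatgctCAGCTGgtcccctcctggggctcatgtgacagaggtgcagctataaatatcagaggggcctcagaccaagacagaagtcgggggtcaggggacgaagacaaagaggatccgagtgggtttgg
Runx1: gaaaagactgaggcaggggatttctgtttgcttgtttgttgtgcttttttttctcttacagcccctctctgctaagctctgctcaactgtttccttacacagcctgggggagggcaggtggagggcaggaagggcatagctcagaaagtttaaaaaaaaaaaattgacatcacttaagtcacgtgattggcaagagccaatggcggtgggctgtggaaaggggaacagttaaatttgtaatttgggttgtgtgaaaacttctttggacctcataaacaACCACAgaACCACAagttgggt

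How much of each transcript does adult fast muscle hold? Levels between genes were compared as normalised reads per kb of exon, using the joined exon lengths of the GENCODE M21 annotation (GRCm38). Trim63, which encodes the RING-finger ligase MuRF1 of the sarcomere, was the highest of the 10 per length, at 1904 normalised reads per kb over the 8 libraries. Foxo4 followed with 1435 and Fbxo32, which encodes the F-box protein atrogin-1, with 1039. These 3 lay above 96.6, 95.5 and 94.0% of the tested genes with a known length. Foxo4 stood above Fbxo32 in 7 of 8 libraries, with overlapping ranges, while Trim63 stood above Foxo4 in all 8.

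The middle of the order was crowded. Gadd45a reached 177 normalised reads per kb and Foxo3 121, in this order in all 8 libraries. Fbxo21 (93.3), Hdac4 (80.2), Foxo1 (79.7) and Fbxo30 (76.2) followed, and neighbours among these 4 did not differ beyond their spread: each pair's ranges overlapped, and their means lay within 0.79 SD of each other. Among Foxo1, Foxo3 and Foxo4, Foxo4 was thus the most abundant per length in every library, at 8.68 to 14.6 times Foxo3. Foxo1 amounted to 0.646 ± 0.101 of Foxo3 with m31 and 0.671 ± 0.192 with the control guide (SD, n = 4 each). Foxo6 was not part of this comparison. Runx1 was scarce, at 8.72 normalised reads per kb, and stood above 12.1% of tested genes.

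Between the guides, none of the 10 genes passed limma's adjusted threshold (adjusted p = 0.647 to 0.983). Hdac4 and Foxo3 were lower in every m31 library than in any control library, and Fbxo32 was lower on average with overlapping groups. These 3 were the genes with an unadjusted p under 0.05, against 6.79% of all genes tested in either direction and 3.03% in the lower direction. In edgeR on recovered reads the same 3 had an unadjusted p under 0.05 (7.02% of genes) and none passed after adjustment (0.00618%), and in DESeq2 the same 3 did (5.38%) and none passed (0.164%). In all, 6 of the 10 estimates were below 0 and the median log2 difference was -0.15, beside 48.7% below 0 and a median of 0.0052 over all genes tested. Groups without overlap and lower values with m31 were found for 2 of the 10 genes, against 2.02% of all genes tested in that direction and 3.85% in either. Beside these differences, all 8 fibroblast markers had estimates above 0 (median 0.33, 4 at an unadjusted p under 0.05). Their sums were 62827 to 174181 normalised reads in the m31 group and 54426 to 81717 in the control group. The 8 myofibre markers all had estimates below 0 (median -0.08, lowest -0.64). Among them 1 had an unadjusted p under 0.05 and 1 had groups without overlap. All 6 tendon markers (median 0.64, 3 at an unadjusted p under 0.05) and all 10 tested leukocyte and macrophage markers (median 0.48) were above 0, and all 5 blood markers were below 0 (median -0.46). The part of these cells in the differences was not tested. Since the genes were chosen with earlier results known, these counts describe the set and are no test of it.

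**Figure D1:**
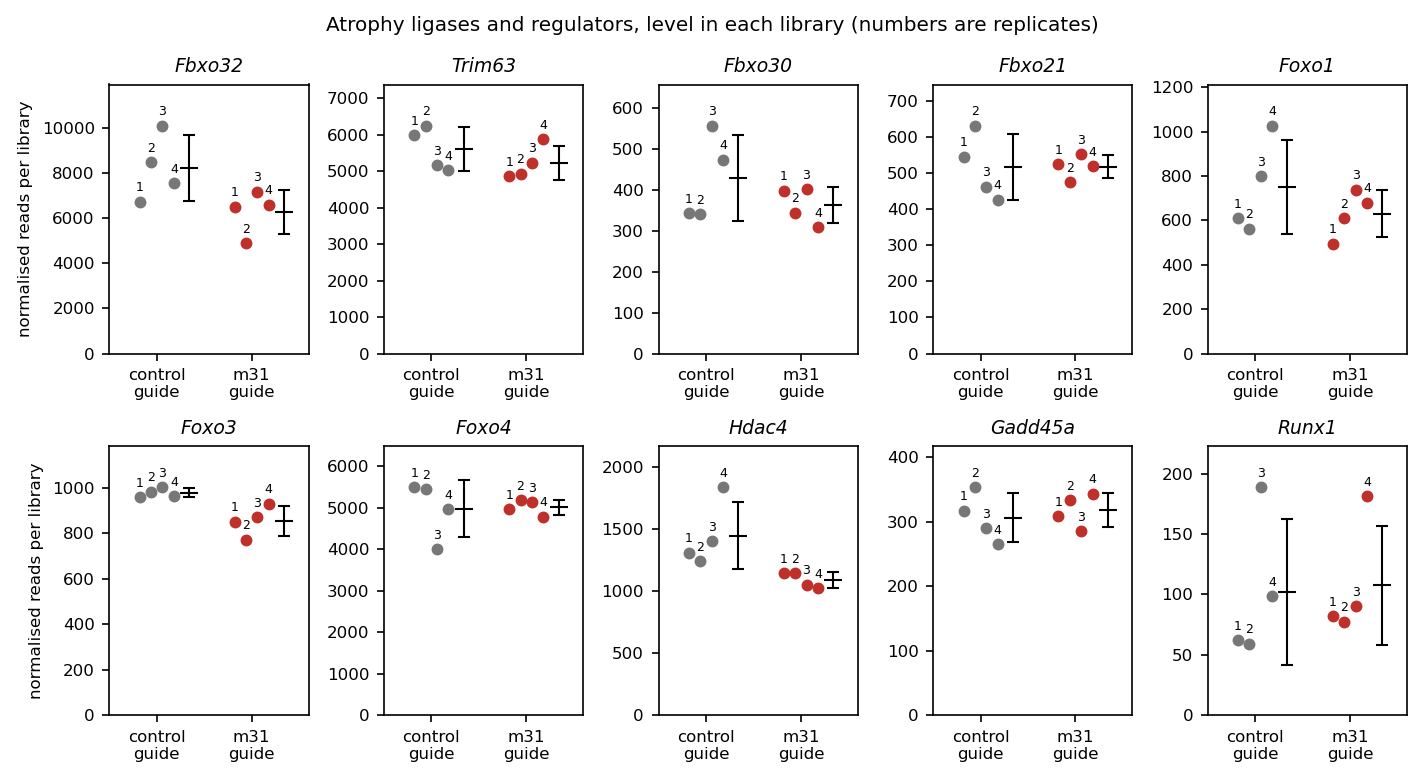
Normalised reads per library (linear axes from 0) for the 10 genes; grey points are control libraries, red points m31 libraries, numbers are replicates, and black bars give the mean ± SD (n = 4). Hdac4 and Foxo3 show no overlap between guides, and Runx1 shows a single high library in each group.

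Fbxo32 lies on chromosome 15 from 58175879 to 58214932 on the minus strand (GRCm38), and its product recruits substrates to the SCF ubiquitin ligase complex. It had 6496, 4890, 7160 and 6594 normalised reads in m31 replicates 1 to 4 and 6720, 8474, 10096 and 7542 in control replicates 1 to 4. The lowest of all was m31 replicate 2 and the highest control replicate 3, and the groups overlapped because m31 replicate 3 stood above control replicate 1. The means were 6285 ± 975 and 8208 ± 1448 (SD, n = 4 each). The log2 difference was -0.38 ± 0.14 (SE), or 0.767-fold with a 95% interval from 0.615 to 0.956, with limma's adjusted p = 0.705. It was -0.27 without m31 replicate 2 and -0.28 without control replicate 3. An annotated antisense gene, Gm15943, shares 186 exonic bases with Fbxo32 and had a mean of 31.1 normalised reads, which without a stated strand setting cannot be separated from Fbxo32.

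Trim63, on chromosome 4 from 134315120 to 134329629 on the plus strand, differed less between guides. Its values were 4856, 4921, 5232 and 5869 with m31 and 5987, 6246, 5152 and 5021 with the control guide, in replicate order. Both groups covered much the same range, with m31 replicates 3 and 4 above control replicates 3 and 4. The log2 difference was -0.10 ± 0.10 (SE), or 0.933-fold with an interval from 0.804 to 1.08 and limma's adjusted p = 0.880, and ran from -0.16 without m31 replicate 4 to -0.045 without control replicate 2. Per kb, Fbxo32 amounted to 0.405 to 0.558 of Trim63 in the m31 libraries and to 0.457 to 0.798 in the control libraries, highest in control replicate 3.

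Fbxo30 and Fbxo21 encode F-box proteins known as MUSA1 and SMART, ligase subunits that mice need for full muscle loss after denervation. Fbxo30 (chromosome 10, 11281330 to 11298052, plus strand) counted 398, 344, 402 and 309 normalised reads in the m31 libraries against 343, 341, 557 and 474 in the controls. Control replicates 3 and 4 were the high libraries, while control replicates 1 and 2 lay within the m31 range. The log2 difference was -0.21 ± 0.17 (SE), with a 95% interval from -0.58 to 0.16 (limma adjusted p = 0.841). It was -0.078 without control replicate 3 and -0.14 without m31 replicate 4. Fbxo21 (chromosome 5, 117976730 to 118010201, plus strand) averaged 518 ± 32.4 normalised reads under m31 and 516 ± 91.6 under the control guide, with the highest and the lowest library both in the control group. Its log2 difference was 0.019 with an interval from -0.26 to 0.30, and turned to -0.017 when libraries were recentred on their medians.

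The FoxO factors share a DNA-binding forkhead domain and are excluded from the nucleus when Akt phosphorylates them, so their transcript level is not a measure of their activity. Foxo3 (chromosome 10, 42181841 to 42276755, minus strand), the factor best known for driving Fbxo32 in mouse muscle, counted 850, 770, 870 and 929 normalised reads in the m31 libraries and 958, 983, 1002 and 963 with the control guide. Every m31 library was below every control library, by a narrow margin between m31 replicate 4 and control replicate 1, and the control libraries lay close together. The means were 855 ± 65.9 and 977 ± 20.1 (SD, n = 4 each). This gave a log2 difference of -0.19 ± 0.08 (SE), or 0.874-fold with an interval from 0.771 to 0.990, with limma's adjusted p = 0.720. Without both m31 replicate 4 and control replicate 3 it was -0.22.

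Foxo1 (chromosome 3, 52268336 to 52353221, plus strand), which rises with fasting in mice, counted 495, 611, 739 and 679 normalised reads in the m31 libraries and 610, 563, 799 and 1027 with the control guide. An annotated antisense gene, Gm20402, shares 674 exonic bases with Foxo1, and the strand setting is not given in the sources used here. For Foxo1 the groups overlapped, and control replicate 4 was the highest library. Its log2 difference was -0.22 ± 0.19 (SE; interval -0.64 to 0.19; limma adjusted p = 0.849), -0.11 without m31 replicate 1, -0.35 without control replicate 2 and -0.058 without control replicate 4. Foxo4 (chromosome X, 101254528 to 101260873, plus strand) had 4965, 5186, 5133 and 4789 with m31 and 5504, 5447, 4008 and 4973 with the control guide. Control replicate 3 was the low library, and the m31 libraries lay inside the control range. The log2 difference of 0.021, with an interval from -0.21 to 0.25, turned to -0.080 without control replicate 3 and to -0.014 on recentring.

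**Figure D2:**
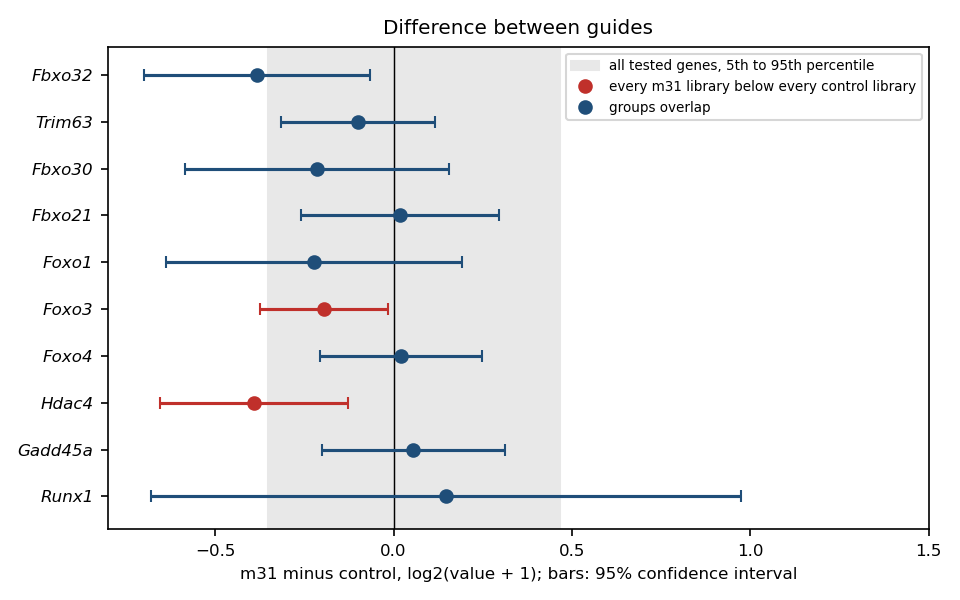
Difference between guides per gene, m31 minus control on the log2(value + 1) scale, with 95% confidence intervals from the limma fit (4 against 4 libraries); the grey band spans the 5th to 95th percentile of all 15960 tested genes. The intervals of Fbxo32, Foxo3 and Hdac4 lie below 0 before adjustment, and Hdac4 and Foxo3 (red) are the genes whose groups do not overlap.

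Hdac4 is a class II deacetylase that gathers in muscle nuclei when the nerve falls silent, where it represses Dach2 and so frees Myog and the ligase genes. It lies on chromosome 1 from 91928779 to 92195699 on the minus strand. Its values were 1144, 1143, 1049 and 1023 normalised reads in the m31 libraries and 1307, 1240, 1398 and 1836 with the control guide. Every m31 library was below every control library, the m31 libraries lay close together, and control replicate 4 was the highest. The means were 1090 ± 63.0 and 1445 ± 269 (SD, n = 4 each). The log2 difference of -0.39 ± 0.12 (SE), or 0.762-fold with an interval from 0.635 to 0.915, had the smallest p of the 10 genes (0.0074 unadjusted, limma adjusted p = 0.647), and 1.06% of all tested genes had a smaller one. Without control replicate 4 it was -0.27, and without both m31 replicate 4 and control replicate 3 it was -0.37. A non-coding gene on the other strand, Gm26720, overlaps Hdac4 exons by 3536 bases, and the strand setting is not given in the sources used here.

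Gadd45a, on chromosome 6 from 67035096 to 67037457 on the minus strand, encodes a small nuclear stress protein that acts downstream of Hdac4 in denervated mouse muscle. It counted 309, 333, 285 and 344 normalised reads in the m31 libraries and 317, 354, 290 and 265 with the control guide, and the groups overlapped throughout. A log2 difference of 0.06 ± 0.12 (SE) was found, with an interval from -0.20 to 0.31 and limma's adjusted p = 0.950. It was 0.020 after recentring on medians and turned to -0.011 without control replicate 4. A gene on the other strand, E230016M11Rik, shares 337 exonic bases with Gadd45a and had a mean of 16.2 normalised reads. Without a stated strand setting its reads cannot be separated from those of Gadd45a.

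Runx1 encodes a transcription factor of blood cell formation that is also induced in denervated mouse muscle, where it limits wasting. Runx1 lies on chromosome 16 from 92601466 to 92826149 on the minus strand and shares 106 exonic bases with an antisense gene, Gm26626. It rested on 62 to 226 reads per library, and stood at 81.7, 77.3, 90.1 and 181 normalised reads with m31 and at 61.9, 59.1, 189 and 98.6 with the control guide. A single library per group was high, m31 replicate 4 and control replicate 3, and the other 6 lay between 59.1 and 98.6. Its log2 difference was 0.15 ± 0.37 (SE; interval -0.68 to 0.97; limma adjusted p = 0.960). It ran from -0.13 without m31 replicate 4 to 0.49 without control replicate 3, so its direction was not set by these libraries.

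The same pair of libraries was highest in the leukocyte and macrophage markers. All 12 markers of that list were in the table and 10 passed the minimum of 10 normalised reads. Their sum reached 3369 to 8373 in the m31 group and 2514 to 5882 in the control group, and the B cell markers Cd79a and Ms4a1 were below the minimum. Across the 8 libraries, Runx1 and this sum had Pearson's r = 0.883 (exact permutation p = 0.00804, adjusted p = 0.168 over 40 relations) and Spearman's rho = 0.738 (exact permutation p = 0.0458, adjusted p = 0.555). Without m31 replicate 4 and control replicate 3, which are the libraries farthest from the median of the sum, r was 0.426, so the relation rests on these libraries. The part of these cells in the Runx1 level was not tested.

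**Figure D3:**
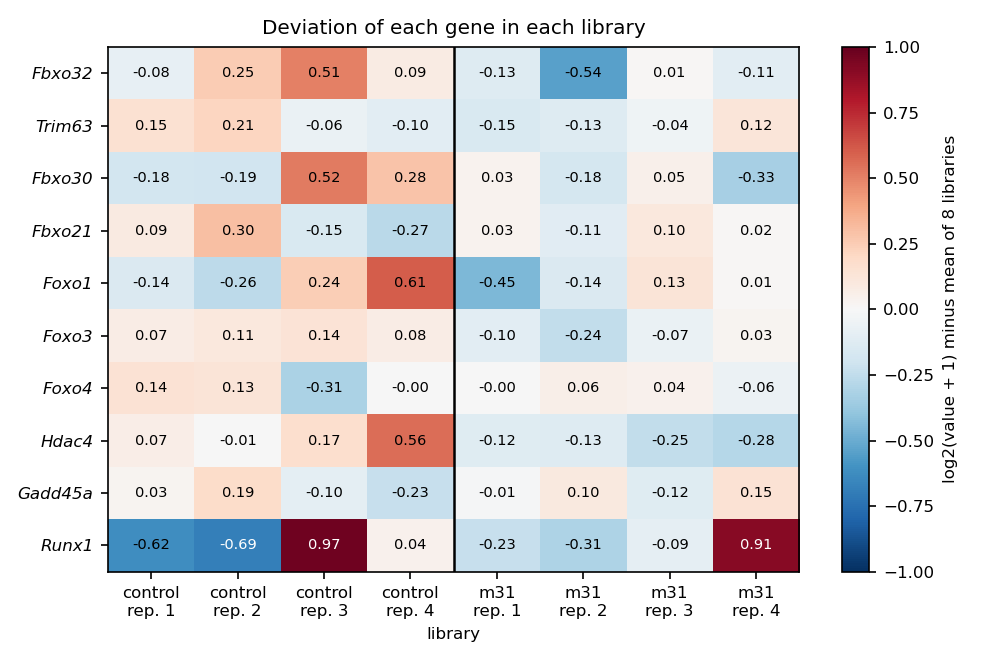
Deviation of each gene in each library from its mean over the 8 libraries, on the log2(value + 1) scale; red is higher, blue lower, and the vertical line separates control from m31 libraries. Runx1 is highest in control replicate 3 (0.97) and m31 replicate 4 (0.91), Foxo1 and Hdac4 are highest in control replicate 4 (0.61 and 0.56), and Fbxo32 is lowest in m31 replicate 2 (-0.54).

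Did the ligases move with the FoxO factors from library to library? Among all 45 pairs of the 10 genes, 5 had an unadjusted exact permutation p under 0.05 for Pearson's r, and 1 passed after adjustment over the 45 pairs. Fbxo32 and Foxo3 were high and low in the same libraries, with r = 0.863 (exact permutation p = 0.00409, adjusted p = 0.0921) and rho = 0.929 (exact permutation p = 0.00223, adjusted p = 0.10). The relation kept its sign inside the groups: with group means subtracted r was 0.736, and without m31 replicate 2 and control replicate 3, the libraries farthest from the Fbxo32 median, it was 0.597. Other pairs of a ligase and a FoxO factor ran in either direction. Positive r was found for Fbxo30 and Foxo1 (0.599), Trim63 and Foxo3 (0.550) and Fbxo21 and Foxo4 (0.545), among others. For these pairs the exact permutation p ran from 0.119 to 0.165. Without control replicates 3 and 4, r for Fbxo30 and Foxo1 turned to -0.158. Trim63 and Foxo3 had r = 0.383 without control replicates 1 and 2. Fbxo21 and Foxo4 had r = 0.678 without control replicates 2 and 4. Negative r was found for Fbxo32 and Foxo4 (-0.528), Trim63 and Foxo1 (-0.228), and the pairs Fbxo30 with Foxo4 and Fbxo21 with Foxo1. Fbxo30 and Foxo4 had r = -0.714 (exact permutation p = 0.0487, adjusted p = 0.366; rho = -0.405, exact permutation p = 0.327, adjusted p = 0.525), and r = 0.023 without control replicates 3 and 4, so that relation rests on these libraries. Fbxo21 and Foxo1 had r = -0.678 (exact permutation p = 0.0642, adjusted p = 0.366; rho = -0.643, exact permutation p = 0.0962, adjusted p = 0.525), and r = -0.274 without control replicates 2 and 4. Fbxo32 and Trim63, which are often used together as markers of wasting, had r = 0.253 over the same libraries (exact permutation p = 0.547, adjusted p = 0.684; rho = 0.452, exact permutation p = 0.267, adjusted p = 0.525), r = 0.345 without m31 replicate 2 and control replicate 3, and r = 0.0013 with group means subtracted.

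The pair that passed was Foxo4 and Runx1, which ran opposite to each other with r = -0.875 (exact permutation p = 0.000298, adjusted p = 0.0134). Spearman's rho was -0.905 (exact permutation p = 0.00456, adjusted p = 0.103), so the rank relation did not pass. With group means subtracted r was -0.894, without control replicates 1 and 3, the libraries farthest from the Foxo4 median, it was -0.880, and without m31 replicate 4 and control replicate 3, the high Runx1 libraries, it was -0.904. Foxo4 also ran opposite to the summed leukocyte and macrophage markers, with r = -0.675 (exact permutation p = 0.0700, adjusted p = 0.700). Spearman's rho for Foxo4 and this sum was -0.786 (exact permutation p = 0.0279, adjusted p = 0.555). Without m31 replicate 4 and control replicate 3 that r was -0.504. The part of these cells in the relation of Foxo4 and Runx1 was not tested. Fbxo30 and Gadd45a also ran opposite to each other (r = -0.806, exact permutation p = 0.0152, adjusted p = 0.228; rho = -0.881, exact permutation p = 0.00724, adjusted p = 0.109), and r was -0.837 without control replicates 3 and 4. All genes of a library share its size factor, and the libraries may not be independent animals, so these relations describe the 8 libraries.

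**Figure D4:**
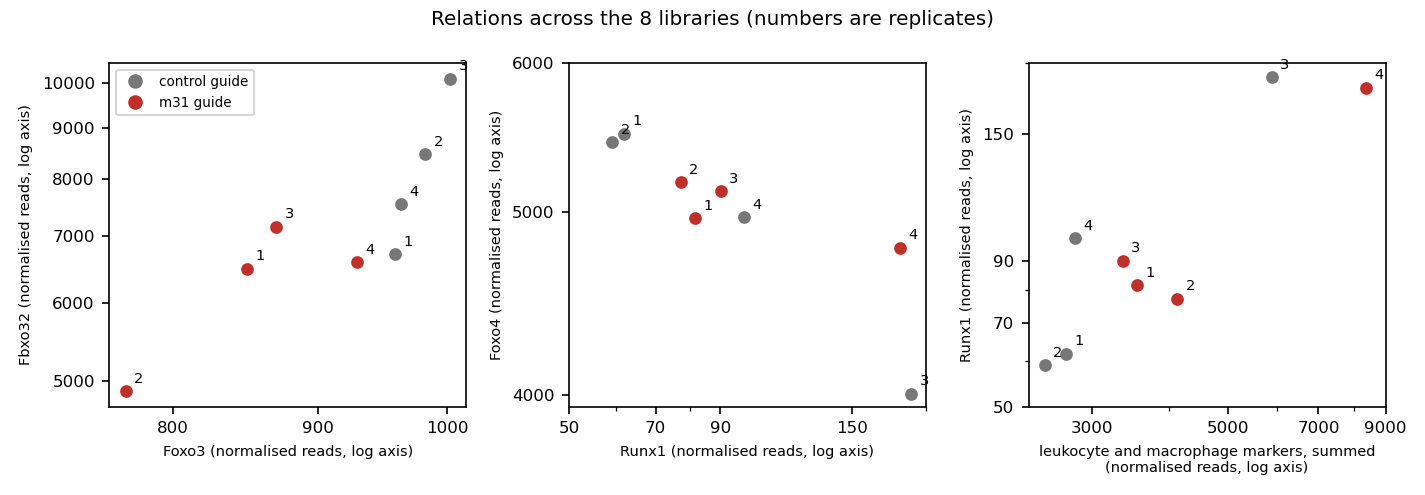
Pairs of levels in normalised reads across the 8 libraries on log axes: Fbxo32 against Foxo3, Foxo4 against Runx1, and Runx1 against the summed leukocyte and macrophage markers; grey is control, red is m31, numbers are replicates. Fbxo32 and Foxo3 are lowest together in m31 replicate 2 and highest together in control replicate 3, and the right panel is led by control replicate 3 and m31 replicate 4.

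Among the other library measures, the share of reads in mitochondrial genes ran opposite to Gadd45a (r = -0.831, exact permutation p = 0.00841, adjusted p = 0.168 over the 40 relations; rho = -0.905, exact permutation p = 0.00456, adjusted p = 0.183; r = -0.914 without m31 replicate 3 and control replicate 2). None of the 40 relations to GNDM, leukocyte markers, fibroblast markers or mitochondrial share passed adjustment, while 2 had an unadjusted exact permutation p under 0.05 for r. For Foxo3, Fbxo32 and Hdac4, r with the summed leukocyte and macrophage markers was -0.043, -0.0061 and -0.394. Without m31 replicate 4 and control replicate 3 these r were -0.989, -0.864 and -0.508. With group means subtracted over all 8 libraries they were 0.547, 0.403 and -0.127. The part of these cells in the 3 genes was not tested. GNDM ranged from 6157 normalised reads in m31 replicate 4 to 37989 in control replicate 3. With its level as a covariate the differences of Hdac4, Fbxo32 and Foxo3 were -0.40, -0.37 and -0.21 on the log2 scale.

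The genes whose log2 levels over the 8 libraries were most like those of a given gene were listed for 4 of the 10. For Hdac4 these were Ccng1 (r = 0.980), Snrnp27 (0.969), Cct5 (0.969), Herc6 (0.966) and Gstm7 (0.966). For Fbxo32 they were 3110083C13Rik (0.944), Gm16161 (0.940), Nes (0.934), Tut4 (0.933) and the ribosomal pseudogene Rps24-ps3 (0.927), of which 3110083C13Rik and Gm16161 lay just above the minimum level, at 10.1 and 10.5 normalised reads. For Trim63 they were Gm10074 (0.982), Trmt6 (0.973), Gm49794 (0.968), Abcc1 (0.965) and Itgb6 (0.964), and for Runx1 Mfap5 (0.977), Tbc1d9, Twf1, Actr3 and Mtpn (0.969), in falling order. Among all tested genes Foxo3 ranked 33rd in likeness to Fbxo32 and Trim63 ranked 4099th.

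Around the 10 genes, 117 further genes of the pathway were taken in 6 lists, and 114 were tested. None passed limma's adjusted threshold (0.00627% of all tested genes did), 8 had an unadjusted p under 0.05 (7.02%, near the 6.79% of all tested genes), and 1, Irs1, passed in DESeq2, where 0.164% of all genes did; 70 estimates were below 0 and 44 above, with a median log2 difference of -0.035. Groups without overlap were lower with m31 for 5 of the 114 (4.39%, against 2.02% of all tested genes) and higher for 1 (0.877%, against 1.84%). The 5 were Map1lc3b, Sesn1, Skp1a, Igf1r and Mef2c, and the 1 was Akt1.

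Signalling above FoxO held the widest differences. Of 19 tested kinases, receptors and cofactors, 11 were below 0 and 8 above, with a median of -0.061. Irs1, the adaptor that carries insulin and IGF signals to the Akt pathway, stood at 921, 1050, 766 and 698 normalised reads with m31 and at 1448, 1022, 2252 and 2353 with the control guide. Control replicates 3 and 4 were far above the rest, and m31 replicate 2 was just above control replicate 2, so the groups overlapped. The log2 difference was -0.98 ± 0.24 (SE; interval -1.52 to -0.44; limma adjusted p = 0.627). In DESeq2 on recovered reads it was -1.04 ± 0.24 (SE) with an adjusted p of 0.0176, so the call depended on the tool; over the other alternatives the adjusted p ran from 0.208 to 0.985.

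Akt1 encodes a kinase that inactivates FoxO proteins. It counted 1989, 2169, 2255 and 2154 normalised reads in the m31 libraries and 1667, 1881, 1775 and 1595 with the control guide, higher in every m31 library than in any control library (log2 difference 0.31 ± 0.08 (SE), limma adjusted p = 0.627). Igf1r, the IGF receptor, had 497 ± 31.6 and 613 ± 53.5, lower in every m31 library (log2 difference -0.30, limma adjusted p = 0.647). Foxo6, a FoxO gene outside the 10, had 561 ± 146 and 392 ± 98.0 with overlapping groups (log2 difference 0.51, limma adjusted p = 0.720).

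Of 25 tested targets that FoxO factors are known to drive in wasting muscle, autophagy genes among them, 14 were below 0 and 11 above, with a median of -0.011. Sesn1, a sestrin of the stress response, averaged 455 ± 48.0 normalised reads under m31 and 549 ± 24.3 under the control guide without overlap (log2 difference -0.27, limma adjusted p = 0.698). Irs2, the second insulin receptor adaptor, stood at 1375, 939, 937 and 693 with m31 and at 786, 1307, 2759 and 2420 with the control guide. As for Irs1, control replicates 3 and 4 were the high libraries, and the groups overlapped (log2 difference -0.76 ± 0.35 (SE), limma adjusted p = 0.735). The metallothionein gene Mt1 had a log2 difference of 0.40 with overlapping groups. Map1lc3b, which encodes an autophagosome protein and was picked out because its groups did not overlap, had 4738 ± 239 and 5177 ± 135 normalised reads.

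The other ligases of muscle lay close to 0. Of 21 tested, 12 were below and 9 above 0, none at an unadjusted p under 0.05, with a median of -0.018 and a range from -0.17 to 0.24. Trim55, a sarcomeric relative of Trim63, had a log2 difference of -0.16, the mitochondrial ligase gene Mul1 0.21, Cblb, a ligase that targets Irs1 in unloaded mouse muscle, 0.24, and Klhl41, a sarcomeric cullin adaptor, -0.17. Of 13 genes of the SCF core and of ubiquitin transfer or removal, 10 were below 0, with a median of -0.057. The listed Skp1, found under its older symbol Skp1a, encodes the adaptor that joins F-box proteins such as Fbxo32 to the complex. It stood at 4019, 4001, 3904 and 4041 normalised reads with m31 and at 4773, 4262, 4736 and 5266 with the control guide. Every m31 library was below every control library and the m31 values were nearly alike (log2 difference -0.25 ± 0.08 (SE), limma adjusted p = 0.647). The conjugating enzyme genes Ube2b, Ube2d3 and Ube2j1 had log2 differences of -0.16, -0.14 and 0.11.

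Of 23 tested partners and paralogs of Hdac4, Gadd45a and Runx1, 16 were below 0 and 7 above, with a median of -0.053. Mef2c, which class II deacetylases bind and repress, stood at 14105, 13349, 12820 and 14379 normalised reads with m31 and at 15833, 14897, 16460 and 16134 with the control guide, without overlap (log2 difference -0.21, limma adjusted p = 0.698), whereas its paralog Mef2d had 0.19. Dach2, the repressor that Hdac4 acts on, had 84.4 ± 38.5 and 110 ± 6.51 normalised reads (log2 difference -0.49, interval -1.10 to 0.12), and Runx1t1, a co-repressor gene related to Runx1 through a leukaemia fusion, had a log2 difference of 0.41. Myog, picked out because Dach2 represses it, had 120 normalised reads on average with each guide.

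Genes that muscle raises when it loses its nerve lay on both sides of 0. Of 13 tested, 7 were below and 6 above, none at an unadjusted p under 0.05, with a median of -0.054 and a range from -0.43 to 0.81. Musk, the kinase of the neuromuscular junction, averaged 947 ± 136 normalised reads under m31 and 815 ± 194 under the control guide (log2 difference 0.24). The acetylcholine receptor subunit Chrnd (-0.25) and the potassium channel gene Kcnn3 (-0.43) had negative log2 differences with overlapping groups. All 6 Schwann cell markers were below 0 (median -0.36), and their sum ran from 4711 to 6998 normalised reads in the m31 group and from 5042 to 9219 in the control group. The part of nerve content in the Hdac4 level was not tested.

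**Figure D5:**
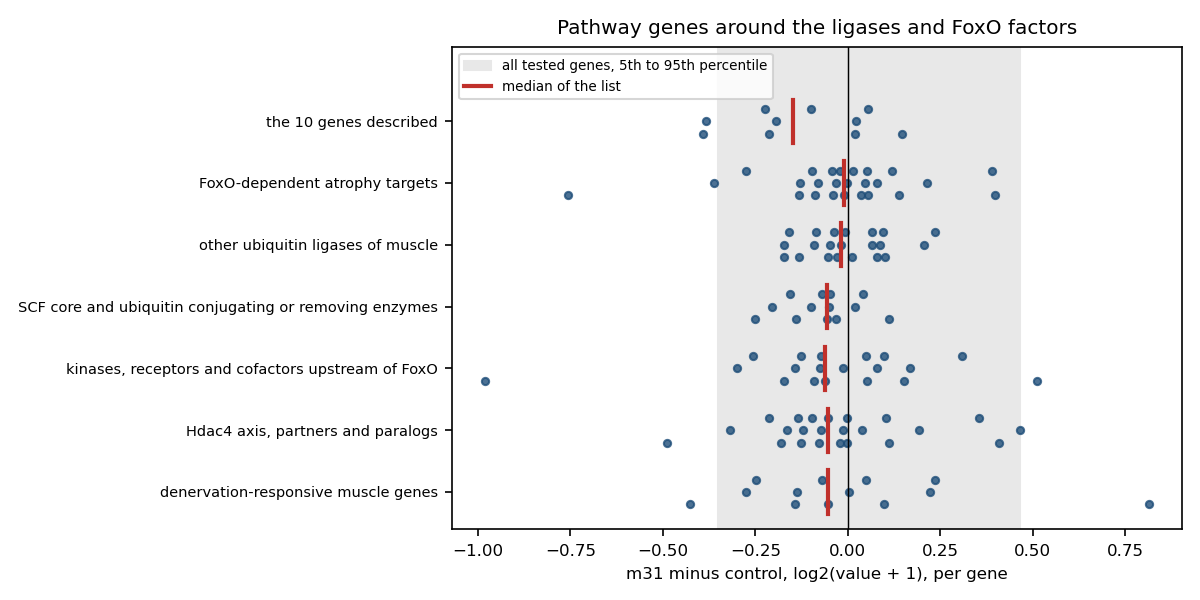
Difference between guides, m31 minus control on the log2(value + 1) scale, for each tested gene of the 10 and of the 6 pathway lists; red bars are list medians and the grey band spans the 5th to 95th percentile of all tested genes. List medians lie between -0.061 and -0.011, beside -0.15 for the 10 genes, and Irs1 (-0.98) and Irs2 (-0.76) lie farthest to the left. The value farthest to the right (0.81) is in the list of denervation-responsive genes.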

How the data were processed

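Libraries were made from total RNA (RNeasy, NEBNext Ultra), per the labels' protocols. Values were deposited as a signal, reads per gene over a size factor. STAR, DESeq2 and the human build GRCh38.p12 appear in the submitters' processing notes, while identifiers are mouse Ensembl. For the counter, its strand setting and its filters nothing is given in the sources used here. Of 11 value columns, 8 match library names in the labels; 3 were not used. The 5 construct entries stayed out of gene tests. Reads were recovered by dividing by the value of 1 read (100% whole, tolerance 0.01).

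The main test was limma 3.58.1 (R 4.3.3, intensity trend) on log2(value + 1) for 15960 genes with a mean of at least 10, with Benjamini-Hochberg adjustment over all of them and a threshold of 0.05; a pseudocount understates changes of low genes. As the unit is normalised, edgeR 4.0.16 and DESeq2 1.42.0 on recovered reads were alternatives, beside other filters, pseudocounts, normalisations, weights, covariates and left-out libraries. The scripts were tested on simulated data. Replicates differed beyond counting noise (chi-square per degree of freedom 14.3 to 57.9). Depth limits precision for low genes only; for the others the spread between libraries does.

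The genes, lists and alternatives were chosen with earlier results of these data known. Named were the 10 genes, up to 4 genes per list with the smallest unadjusted p, and the 5 genes most like Fbxo32, Trim63, Hdac4 and Runx1; others are said to be picked out. Some genes named by this rule are not reported here.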

Additional observations from a re-analysis of the deposited data

Results flagged for a closer look

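Within groups of 4 libraries, 4 of 70 combinations of gene and group held a library whose gap to its neighbour exceeded Dixon's 95% limit for its share of the group's range, where chance flags about 1 in 20. Runx1 in m31 replicate 4 stood at 181 normalised reads against 77.3 to 90.1 in the other m31 libraries. Among m31 libraries Cblb reached 650 in replicate 1 against 513 to 528, and Klhl41 reached 17539 in replicate 3 against 15457 to 15787. The construct entry GNDM reached 37989 in control replicate 3, while the rest of that group lay at 9802 to 13775.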

How the results depend on the processing

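None of the 10 genes passed under any of the 21 alternatives. Hdac4 (-0.46 to -0.27 on the log2 scale), Fbxo32 (-0.47 to -0.27), Foxo3 (-0.24 to -0.15) kept their sign in all of them. Trim63 (-0.20 to -0.045), Fbxo30 (-0.31 to -0.0031) and Foxo1 (-0.35 to -0.058) also did, but came close to 0: Fbxo30 was -0.078 without control replicate 3, -0.0031 without both m31 replicate 4 and control replicate 3 and -0.032 with library weights, Trim63 was -0.045 without control replicate 2, and Foxo1 was -0.077 with weights. The other 4 did not, and the cause was not tested. Fbxo21 ran from -0.068 to 0.12 with 1 library left out, and was -0.031 without both m31 replicate 4 and control replicate 3, -0.017 recentred on medians, -0.0068 under quantile normalisation, -0.085 with library weights and -0.00033 in edgeR. Foxo4 ran from -0.080 to 0.072 with 1 library left out, and was -0.058 without both libraries, -0.014 recentred, -0.058 with weights and -0.0015 with GNDM as covariate. Gadd45a ran from -0.011 to 0.13, and was -0.0075 without both libraries and -0.0020 with weights; Runx1 ran from -0.13 to 0.49. Genes past the threshold numbered 1, from 1 to 2 with 1 library left out, 3 without both libraries and 31 in DESeq2, none of them among the 10. The count at an unadjusted p under 0.05 ran from 1 to 3 of the 10 with 1 library left out. It was 1, Hdac4, without m31 replicate 2 (4.84% of all tested genes), control replicate 2 (7.04%) or control replicate 3 (11.9%), against 6.79% with all libraries. Of these fits, Foxo3 was counted only without m31 replicate 4 (5.73%) or control replicate 4 (5.29%). The replicate block (5.43%) and edgeR without a filter (6.29%) gave 2, Fbxo32 and Hdac4. Library weights gave 4, with Trim63 added, where 13.8% of all tested genes were counted. The replicate numbers did not pair the libraries (r of deviations -0.184 to 0.0464 between same-numbered libraries, 1 of 8 libraries correlating best with its own number). With the replicate block, 1 gene passed and Hdac4 had an adjusted p of 0.883.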
